A study of Homo sapiens with 12 samples.

Results

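The interferon regulatory factor genes IRF1, IRF2, IRF3, IRF5, IRF7 and IRF8, together with IRF2BP2, which encodes a partner of the IRF2 protein, were followed across 12 RNA-seq libraries of human B cell lymphoma lines. These 7 genes were taken by symbol from a table of 63129 gene IDs. Each symbol had 1 row there. All 7 passed the filter on low values, so that they stand among 18731 genes tested. The 3 established lines, KARPAS-422, Pfeiffer and RL, model diffuse large B cell lymphoma of the germinal centre type. In each of them a mutation in the SET domain activates EZH2. EZH2 is the catalytic subunit of Polycomb repressive complex 2, which methylates histone H3 at silenced genes. KARPAS-422 cells received 0.1% DMSO (3 libraries) or the EZH2 inhibitor CPI-169 at 1.5 µM (3 libraries). Pfeiffer cells received 0.1% DMSO (2 libraries) or the EZH2 inhibitor GSK343 at 1.5 µM (2 libraries). RL cells received 0.1% DMSO only (2 libraries), and every library was made after 4 days. For RL the deposited sample sheet holds library IDs in place of a compound, so its treatment rests on the sample labels. The submitters describe KARPAS-422 and Pfeiffer as responding to EZH2 inhibition in phenotype and RL as not responding. Each treated line had its own compound, so line and compound cannot be told apart. The library number series also differs by line and cannot be told apart from it either. Separate cultures behind the replicates are not stated, and p-values then measure only the spread between these libraries.

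IRF proteins share an N-terminal DNA-binding domain that recognises GAAA repeats, found in the interferon-stimulated response element. IRF3 and IRF7 wait in the cytoplasm until kinases such as TBK1 phosphorylate them downstream of nucleic acid sensors, after which they enter the nucleus and switch on interferon genes. IRF1 activates antigen presentation and growth-restraining genes, and IRF2 competes with it for the same sites. IRF8 is a lymphoid and myeloid factor of the germinal centre that binds with the ETS factors PU.1 and SPI-B at composite ETS-IRF elements.

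The regions before the annotated starts of these genes were read from the RefSeq promoter table for GRCh38.p14, which held windows for 4 of the 7 genes. The expression table uses hg19, and no value below depends on the GRCh38.p14 positions. The windows of IRF1, IRF8 and IRF2BP2 are shown because these genes moved in KARPAS-422, IRF1 and IRF8 in one direction and IRF2BP2 in the other. Each is the 250 bases before a start, 5′ to 3′ on the strand of the gene: chr5:132490774-132491023 on the minus strand for IRF1, chr16:85902580-85902829 on the plus strand for IRF8 and chr1:234610179-234610428 on the minus strand for IRF2BP2. Capitals mark the match to the gamma-activated sequence TTCNNNGAA, an element of promoters that answer to interferon gamma.
IRF1: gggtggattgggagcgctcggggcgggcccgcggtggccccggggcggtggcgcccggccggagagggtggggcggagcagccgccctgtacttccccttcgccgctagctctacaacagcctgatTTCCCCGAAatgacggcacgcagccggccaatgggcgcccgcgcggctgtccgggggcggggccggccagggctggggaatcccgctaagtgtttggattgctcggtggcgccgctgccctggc
IRF8: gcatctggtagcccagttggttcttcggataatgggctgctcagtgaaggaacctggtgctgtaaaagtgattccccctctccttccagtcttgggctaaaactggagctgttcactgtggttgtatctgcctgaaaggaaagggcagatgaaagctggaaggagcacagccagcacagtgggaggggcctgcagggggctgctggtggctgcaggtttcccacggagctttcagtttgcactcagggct
IRF2BP2: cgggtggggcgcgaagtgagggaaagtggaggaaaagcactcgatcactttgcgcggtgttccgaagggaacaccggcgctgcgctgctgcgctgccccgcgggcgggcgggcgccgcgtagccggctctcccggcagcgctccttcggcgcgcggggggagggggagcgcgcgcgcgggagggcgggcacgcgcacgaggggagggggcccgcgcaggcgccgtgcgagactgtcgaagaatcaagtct
The IRF1 window held 1 such match, starting 124 bases before the start, and the motif reads the same on both strands. Of 35116 promoter windows of this length, 6.57% held TTCNNNGAA on either strand. The printed IRF8 and IRF2BP2 windows held none. The ETS-IRF composite (GGAA, any 2 bases, GAAA) was searched on both strands and matched once, in 1 of 4 windows of IRF5, where the minus-strand match reads TTTCGTTTCC on the printed strand 33 bases before that start. It was present in 2.41% of windows. The core of the interferon-stimulated response element (GAAA, any 2 bases, GAAA), searched the same way, matched none of the 9 windows of these 4 genes and 3.02% of all windows.

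Values are FPKM, in which fragments are scaled to the length of the transcript and to the library's mapped total, so levels of different genes can be set side by side per length. The deposited values summed to between 371965 and 630387 per library, and 14018 to 16391 genes reached 1 FPKM. Replicates correlated at r = 0.993 to 0.9972 across genes, except the GSK343 libraries, at 0.97. EZH2 itself stood at 44.4 to 49.1 FPKM in KARPAS-422 with DMSO and 40.4 to 41.5 with CPI-169, and at 31.6 and 30.8 in Pfeiffer with DMSO against 13.8 and 20.9 with GSK343. The B cell markers MS4A1, CD79A, CD79B, PAX5 and CD22 reached 1 FPKM in every group. Their sum was 1611 to 1777 FPKM in KARPAS-422 with DMSO and 1349 to 1468 with CPI-169. In Pfeiffer it was 2566 to 2629 with DMSO and 2039 to 2484 with GSK343. With CPI-169, 1 of the 5 rose (MS4A1, 0.95) and 2 fell, PAX5 among them, where 54.2% of all genes were called. The median log2 difference of the 5 was -0.462, so the sum was lower although MS4A1 rose. With GSK343, 0 of the 5 were called, where 29.5% of all genes were. The 4 germinal centre genes summed to 342 to 364 and 378 to 386 FPKM in KARPAS-422 and to 143 to 146 and 113 to 285 in Pfeiffer. Among them S1PR2 fell in both lines (-1.33 and -1.08), and MME rose in KARPAS-422 (0.29) and fell in Pfeiffer (-0.61). Of the 4, 2 rose and 1 fell with CPI-169, where 54.2% of all genes were called. With GSK343, 0 rose and 3 fell, where 29.5% were called. S1PR2 (13.5 and 7.85 FPKM) and MME (5.45 and 5.56) were a small part of the GSK343 sums. The wide range of those sums therefore lay in the other genes of this list. Of markers of other cells, the 6 T and NK cell genes summed to 35.5 to 37.1 FPKM in KARPAS-422 with DMSO and 53.2 to 59.9 with CPI-169, mostly CD3G, with NKG7 also higher (1.02), while CD2 was listed at 0 in both groups. The 5 myeloid genes summed to 2.20 to 2.69 and 5.18 to 5.73 FPKM there and to 21.1 to 22.6 in RL, and 5 epithelial and stromal genes summed to 137 to 138 in Pfeiffer with DMSO, mostly EPCAM, and 53.1 to 74.0 with GSK343, where EPCAM fell (-1.21) and COL1A1 rose (0.89, and 0.50 without GSK343 replicate 2). CD33, of the myeloid list, rose with CPI-169 (0.89). The part of these genes in the results was not tested. In bulk RNA, fewer cells of a type and less RNA per cell cannot be told apart.

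IRF8 was the most abundant of the 7 genes in Pfeiffer and RL with DMSO, and IRF8 and IRF3 stood near each other at the top in KARPAS-422. IRF8 averaged 120.0 ± 9.56 FPKM (SD, n = 3) in KARPAS-422, 180.1 ± 4.45 (n = 2) in Pfeiffer and 86.8 ± 3.79 (n = 2) in RL, above 97.2%, 97.2% and 94.1% of the genes tested. IRF5 was the scarcest in KARPAS-422, at 0.886 ± 0.0443 FPKM, above 22.8% of genes. IRF2BP2 was the scarcest in RL, at 2.99 ± 0.192 FPKM. Of IRF genes outside this set, IRF9 averaged 83.8, 19.0 and 15.9 FPKM in the 3 lines, and IRF4 reached 56.8 and 62.0 FPKM in Pfeiffer with DMSO against at most 0.209 in any KARPAS-422 or RL library. IRF4 is a factor of activated B cells and plasma cells.

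**Figure D1:**
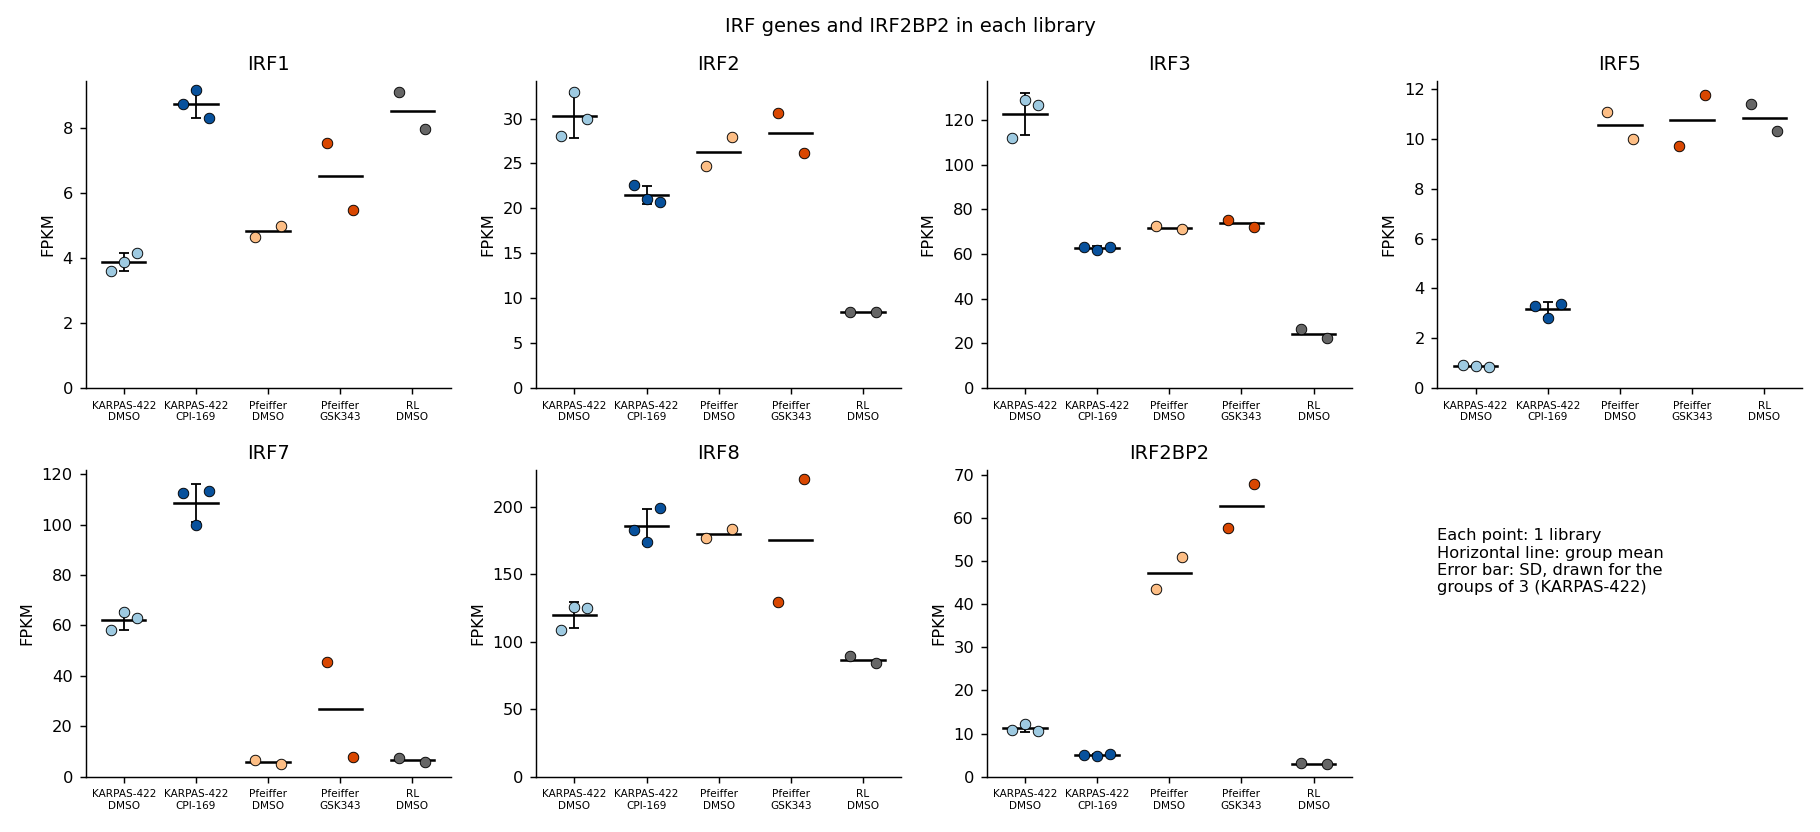
FPKM of each of the 7 genes (vertical axes, linear, from 0) in the 12 libraries by line and treatment, with the group mean as a line and the SD as a bar in the groups of 3. The DMSO groups of the 3 lines do not overlap for IRF1, IRF2, IRF3, IRF8 and IRF2BP2. The share of all genes without such overlap was not counted, and 66.8% to 83% of all genes were called between these lines. IRF7 and IRF8 show the spread between the GSK343 libraries (45.6 and 7.86 FPKM for IRF7).

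As shares of the summed FPKM of IRF1, IRF2, IRF3, IRF4, IRF5, IRF7, IRF8 and IRF9, the pool differed in make-up between lines. IRF3 made up 28.76% to 29.1% of it in KARPAS-422 with DMSO, 18.5% to 19.5% in Pfeiffer and 14.5% to 15.6% in RL. With CPI-169 the IRF3 share was 11.4% to 12.2%, while IRF8 went from 28.0% to 28.7% with DMSO to 34.6% to 35.9%, IRF7 from 14.4% to 15.04% to 19.8% to 21.3%, and IRF9 from 19.3% to 20.3% to 25.6% to 26.8%. None of these 4 ranges overlapped between DMSO and CPI-169, nor did those of IRF1, IRF2 and IRF5. As FPKM, 65% of all genes did not overlap in this comparison. The shares are parts of a whole, so the lower share of IRF3 by itself raises the others. The sum itself was 386 to 449 FPKM with DMSO and 504 to 555 with CPI-169 in KARPAS-422, and 168.6 and 154.5 in RL. IRF7 held 1.35% and 1.74% of the pool in the Pfeiffer DMSO libraries and 10.8% and 1.61% in the GSK343 libraries.

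**Figure D2:**
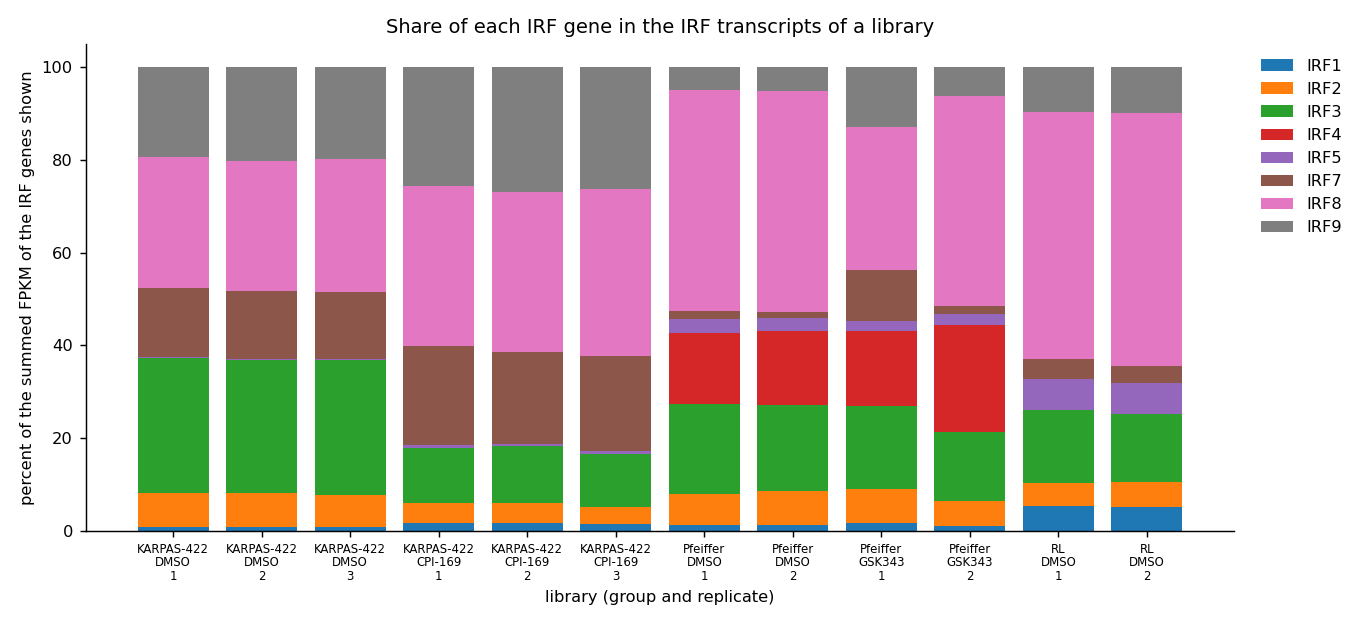
Share of each IRF gene in the summed FPKM of the 8 genes named above (vertical axis, percent), 1 bar per library. In KARPAS-422 the IRF3 share is 28.76% to 29.1% with DMSO and 11.4% to 12.2% with CPI-169, and IRF4 holds 15.3% to 23.1% in Pfeiffer and under 0.14% elsewhere.

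CPI-169 in KARPAS-422 moved the IRF genes in both directions: IRF1, IRF5 and IRF8 rose, and IRF2, IRF3 and IRF2BP2 fell. The limma fit with Benjamini-Hochberg adjustment over all genes called 6 of 7, 3 higher and 3 lower. In the same comparison 54.2% of all genes tested were called, 26.9% higher and 27.3% lower, which is the background for this count. The median log2 difference was 0.625 over the 7 genes and 0.00783 over all genes. In every one of the 7 genes the CPI-169 libraries lay entirely on one side of the DMSO libraries, as they did for 65% of all genes.

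IRF1 and IRF2, which compete for the same DNA sites, moved apart. IRF1 (ENSG00000125347, hg19 chr5:131817300-131826490) was at 3.58, 3.88 and 4.15 FPKM in the DMSO libraries of KARPAS-422 and at 8.72, 9.15 and 8.31 with CPI-169. All treated libraries were above all DMSO libraries, by a log2 difference of 1.00 (SE 0.107, limma adjusted p = 2.03e-05), 2.26 times the mean FPKM. IRF2 (ENSG00000168310, hg19 chr4:185308866-185395734) was at 28.1, 33.0 and 29.9 FPKM with DMSO and at 22.6, 21.1 and 20.7 with CPI-169. Every treated library was below every DMSO library, and IRF2 fell by 0.48 on the log2 scale (SE 0.0857, adjusted p = 7.49e-04). IRF2BP2 (ENSG00000168264, hg19 chr1:234740014-234745271), the corepressor first found through its binding to IRF2, was at 10.8, 12.2 and 10.6 FPKM with DMSO and at 5.04, 4.75 and 5.30 with CPI-169. It fell by 1.02 on the log2 scale (SE 0.0926, adjusted p = 6.47e-06), with no overlap, and so went the way of IRF2 at a larger size.

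Among the factors that act downstream of nucleic acid sensors, IRF3 fell and IRF5 rose. IRF3 (ENSG00000126456, hg19 chr19:50162825-50169132) is made constitutively in most cells and is controlled mainly by phosphorylation. It was at 112, 129 and 127 FPKM with DMSO and at 63.0, 61.7 and 63.1 with CPI-169. The treated libraries lay close together and below every DMSO library, a log2 difference of -0.96 (SE 0.0789, adjusted p = 3.26e-06). IRF5 (ENSG00000128604, hg19 chr7:128577665-128590089), which acts with MYD88 behind Toll-like receptors in B cells, was at 0.926, 0.894 and 0.838 FPKM with DMSO and at 3.28, 2.80 and 3.37 with CPI-169. Its log2 difference was 1.14 (SE 0.0943, adjusted p = 3.39e-06), or 3.56 times the mean FPKM, and the treated level stayed below that of any Pfeiffer or RL library (9.72 to 11.8 FPKM).

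IRF7 (ENSG00000185507, hg19 chr11:612552-615999), whose own transcription is induced by interferon, was at 58.0, 65.4 and 63.0 FPKM with DMSO and at 113, 100.01 and 113 with CPI-169. The groups did not overlap and the log2 difference was 0.80, but it did not pass (SE 0.44, limma adjusted p = 0.154). The standard error is shared with the other groups, among them the GSK343 libraries, which differ most in this gene. With KARPAS-422 fitted alone the adjusted p was 5.64e-05, without GSK343 replicate 1 it was 9.49e-05 and without GSK343 replicate 2 it was 9.43e-05. Over all alternatives it ran from 5.64e-05 to 0.33, with the same sign throughout.

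IRF8 (ENSG00000140968, hg19 chr16:85932408-85956215) was at 109, 126 and 125 FPKM with DMSO and at 183, 174 and 199 with CPI-169. Each treated library was above each DMSO library, and IRF8 rose by 0.62 on the log2 scale (SE 0.16, limma adjusted p = 0.00678), 1.55 times the mean FPKM. The treated libraries overlapped those of Pfeiffer with DMSO, 177 and 183 FPKM.

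**Figure D3:**
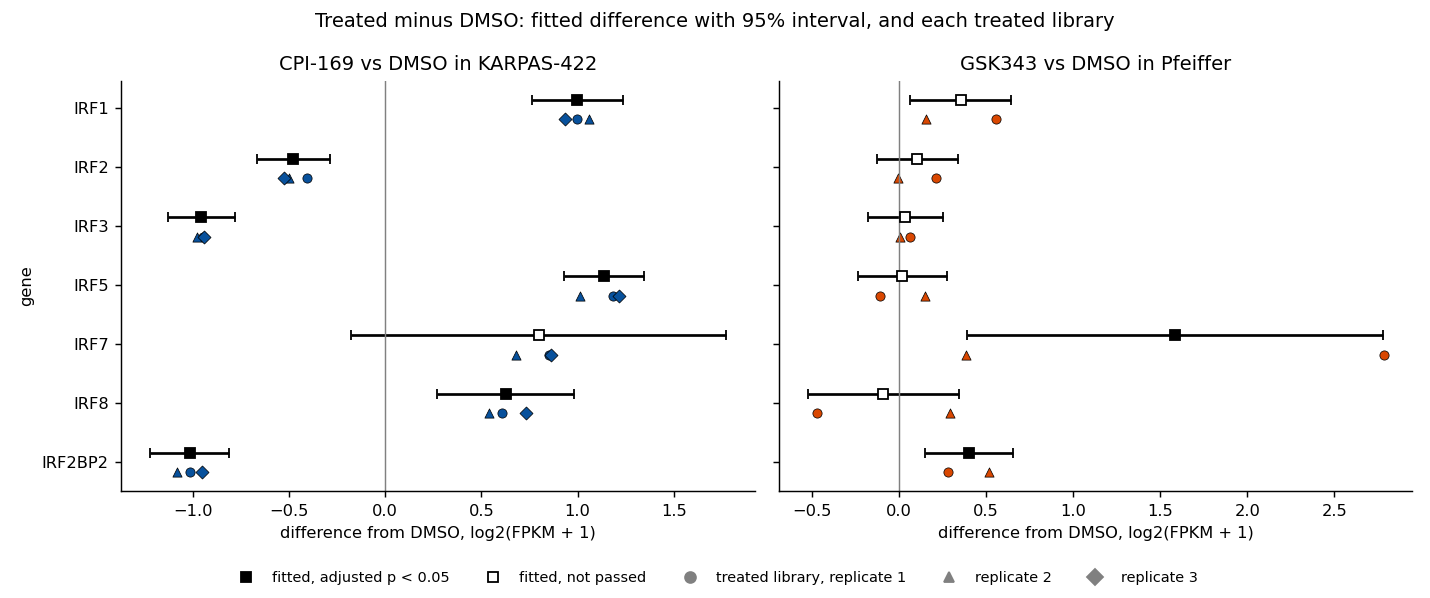
Difference from DMSO on the log2(FPKM + 1) scale (horizontal axes) for each gene: squares with 95% intervals are fitted values, filled where the adjusted p passed 0.05, and coloured symbols are single treated libraries set against the DMSO mean. In KARPAS-422 the 3 treated libraries of each gene lie together, while for IRF7 in Pfeiffer the 2 libraries lie at 2.78 and 0.39.

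GSK343 in Pfeiffer came with fewer calls: IRF7 and IRF2BP2 rose, and the other 5 genes did not pass. Of the 7, 2 were called higher and 0 lower by limma, where 29.5% of all genes were called (12% higher and 17.5% lower). The median log2 difference was 0.106 over the 7 genes and -0.0334 over all genes. The libraries of the 2 groups did not overlap for IRF1, IRF7 and IRF2BP2, and for 57.8% of all genes.

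IRF2BP2 was at 43.5 and 51.0 FPKM in the Pfeiffer DMSO libraries and at 57.6 and 68.0 with GSK343. Both treated libraries were above both DMSO libraries, and IRF2BP2 rose by 0.40 on the log2 scale (SE 0.113, limma adjusted p = 0.0229). The call was lost without Pfeiffer DMSO replicate 1 (0.29, adjusted p = 0.178), without GSK343 replicate 2 (0.28, 0.0973) and with Pfeiffer fitted alone (adjusted p = 0.191).

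IRF7 was at 6.45 and 5.18 FPKM with DMSO and at 45.6 and 7.86 with GSK343. The treated libraries lay far apart, replicate 1 high and replicate 2 near the DMSO libraries. The log2 difference of 1.58 passed (SE 0.539, limma adjusted p = 0.0486), was 0.39 without replicate 1 (adjusted p = 0.0656) and 2.78 without replicate 2 (3.49e-06), and the call was lost when any library other than GSK343 replicate 2 was left out (adjusted p = 0.0628 to 0.183).

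IRF8 and IRF1 also differed between the GSK343 libraries. IRF8 was at 177 and 183 FPKM with DMSO and at 129.8 and 221 with GSK343, one treated library on each side of the DMSO pair. Its log2 difference was -0.09 (limma adjusted p = 0.775), 0.29 without replicate 1 (adjusted p = 0.0644) and -0.47 without replicate 2, where it was called lower (0.013). IRF1 was at 4.64 and 4.98 FPKM with DMSO and at 7.53 and 5.47 with GSK343, above both DMSO libraries in each case. Its log2 difference of 0.36 did not pass (SE 0.131, adjusted p = 0.0635) and was 0.56 without replicate 2 (adjusted p = 0.00417). Replicate 1 was thus the higher for IRF1 and IRF7 and the lower for IRF8.

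The remaining genes overlapped between the Pfeiffer groups. IRF2 was at 24.7 and 28.0 FPKM with DMSO and 30.7 and 26.2 with GSK343, a log2 difference of 0.11 (95% interval -0.13 to 0.34). IRF3 was at 72.3 and 71.1 FPKM with DMSO and 75.2 and 72.2 with GSK343, a difference of 0.04 (-0.18 to 0.25). IRF5 was at 11.1 and 10.0 FPKM with DMSO and 9.72 and 11.8 with GSK343, a difference of 0.02 (-0.23 to 0.28). None of the 3 passed, and none of the 3 intervals reaches the change of that gene in KARPAS-422.

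The difference between the responses was tested in the same fit, as the CPI-169 response in KARPAS-422 minus the GSK343 response in Pfeiffer. It passed for 6 of the 7 genes, where 42.6% of all genes passed. For 3 genes it was above 0 and for 3 below, against 23.8% and 18.8% of all genes. The largest was IRF2BP2, at -1.42 (SE 0.146, limma adjusted p = 5.18e-05), the gene that was called lower in one line and higher in the other. IRF5 (1.12, SE 0.149, adjusted p = 2.44e-04) and IRF3 (-0.99, SE 0.125, adjusted p = 1.66e-04) followed, both changed in KARPAS-422 and not called in Pfeiffer. IRF1 differed by 0.64 (SE 0.169, adjusted p = 0.0114), but by 0.41 with quantile normalization (0.141), and IRF2 by -0.58 (SE 0.136, adjusted p = 0.006). IRF8 differed by 0.71 (SE 0.253, adjusted p = 0.0426). Without GSK343 replicate 1 it differed by 0.33 (0.0665) and without replicate 2 by 1.09 (2.13e-04), leaving out any library other than GSK343 replicate 2 ended the call (0.0534 to 0.111), and so did quantile normalization (0.0711) and no filter on low values (0.104). IRF7 did not pass (-0.79, adjusted p = 0.388) and was 0.41 without GSK343 replicate 1 (0.0838) and -1.99 without replicate 2 (3.71e-05).

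With DMSO alone, Pfeiffer held more IRF5, IRF8 and IRF2BP2 and less IRF3 and IRF7 than KARPAS-422. That is 3 of 7 genes higher and 2 lower, where 83% of all genes were called (43.2% higher and 39.8% lower). IRF5 was higher in Pfeiffer by 2.61 on the log2 scale (SE 0.105, limma adjusted p = 2.02e-09) and IRF2BP2 by 1.98 (SE 0.104, adjusted p = 1.51e-08), while IRF7 was lower by a log2 difference of -3.22 (SE 0.492, adjusted p = 9.75e-05) and IRF3 of -0.76 (SE 0.0882, adjusted p = 1.01e-05). IRF8 was higher in Pfeiffer by 0.58 (SE 0.179, adjusted p = 0.0104), but at -0.004 with quantile normalization (0.984) and not called without Pfeiffer DMSO replicate 2 (0.057). IRF1 (0.26, adjusted p = 0.068) and IRF2 (-0.20, adjusted p = 0.0784) did not pass, though their libraries did not overlap. Both passed without either GSK343 replicate (adjusted p = 0.0139 and 0.0137 for IRF1, 0.0393 and 0.0392 for IRF2), and IRF2 also without KARPAS-422 DMSO replicate 1 (-0.25, 0.0411).

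RL, the line with no treated libraries, stood apart by low IRF2, IRF3 and IRF2BP2. Against KARPAS-422, 7 of 7 genes were called, 2 higher and 5 lower, where 66.8% of all genes were called (33.6% higher and 33.2% lower). IRF3 was at 26.3 and 22.4 FPKM in RL, a log2 difference of -2.29 (SE 0.0882, limma adjusted p = 2.96e-09). IRF2 was at 8.49 and 8.48 FPKM, -1.72 (SE 0.0958, adjusted p = 5.13e-08), and IRF2BP2 at 3.13 and 2.85 FPKM, -1.61 (SE 0.104, adjusted p = 1.54e-07). All 3 genes were below every KARPAS-422 and Pfeiffer library with or without inhibitor, and so was IRF8, at 89.5 and 84.1 FPKM. IRF1 was higher in RL, at 9.09 and 7.97 FPKM (0.97, SE 0.119, adjusted p = 2.83e-05), overlapping the CPI-169 libraries of KARPAS-422. IRF5 was higher too, at 11.4 and 10.3 FPKM (2.65, SE 0.105, adjusted p = 3.80e-09), and IRF7 lower, at 7.28 and 5.65 FPKM (-3.09, SE 0.492, adjusted p = 2.03e-04). IRF8 was lower by a log2 difference of -0.46 (adjusted p = 0.041), and this call was lost without any one library except KARPAS-422 DMSO replicate 1 and the GSK343 libraries (adjusted p = 0.0514 to 0.169) and with no filter on low values (0.104).

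Against Pfeiffer, 5 of 7 genes were called in RL, 1 higher and 4 lower, where 74.3% of all genes were called (35.6% higher and 38.7% lower). IRF1 was higher (0.71, SE 0.131, limma adjusted p = 5.05e-04). IRF2BP2 (-3.59, SE 0.113, adjusted p = 5.30e-10), IRF3 (-1.53), IRF2 (-1.52) and IRF8 (-1.04, SE 0.196, adjusted p = 5.84e-04) were lower. IRF5 (0.04, 95% interval -0.22 to 0.29) and IRF7 (0.13, -1.06 to 1.32) did not pass. These comparisons share DMSO libraries with each other and with the treatment comparisons, so they do not count as separate evidence.

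The ratio of 2 genes in 1 library does not depend on how that library was scaled. IRF1 per IRF2 was 0.118 to 0.139 in KARPAS-422 with DMSO and 0.387 to 0.434 with CPI-169, a difference of 1.67 on the log2 scale. It was 1.07 and 0.939 in RL, where both genes stood at nearly the same FPKM. In Pfeiffer it was 0.188 and 0.178 with DMSO and 0.246 and 0.209 with GSK343, a log2 difference of 0.31. IRF7 per IRF3 was 0.496 to 0.518 in KARPAS-422 with DMSO and 1.62 to 1.80 with CPI-169, a log2 difference of 1.77, so that the order of the 2 genes was turned in every treated library. In Pfeiffer it was 0.0892 and 0.0727 with DMSO and 0.607 and 0.109 with GSK343, a log2 difference of 1.67 that was 0.43 without GSK343 replicate 1 and 2.92 without replicate 2. The treated and DMSO libraries did not overlap in any of the 4 comparisons, and how often other gene pairs separate in this way was not counted. In KARPAS-422 this follows from the single genes. There IRF1 and IRF7 lay above, and IRF2 and IRF3 below, their DMSO values in every treated library. The two-sided exact permutation test gave p = 0.1 for both ratios in KARPAS-422 and p = 0.333 for both in Pfeiffer, in each case the smallest that 3 against 3 and 2 against 2 libraries allow.

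**Figure D4:**
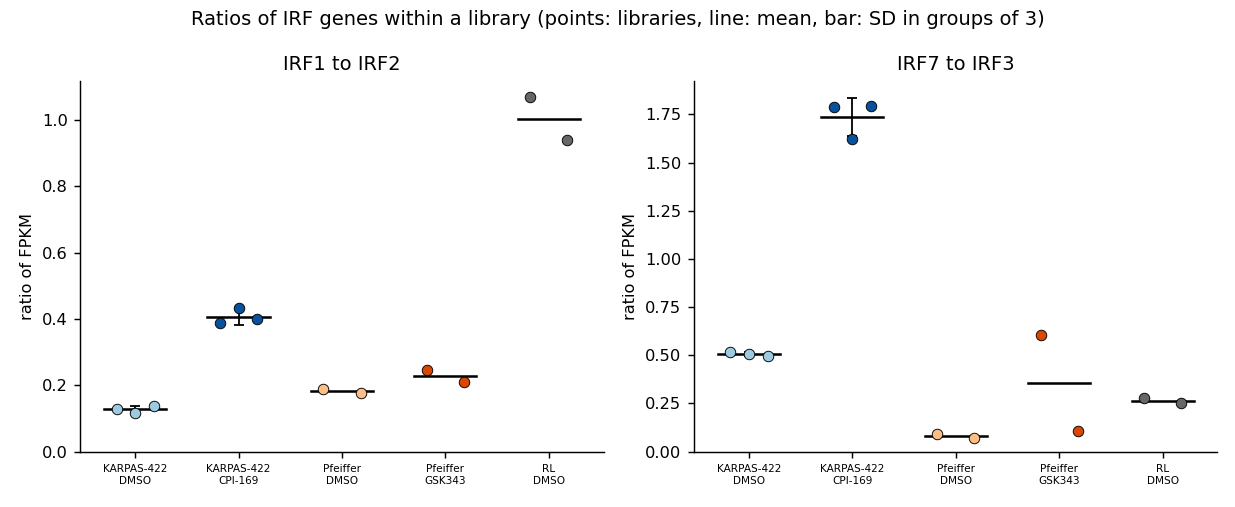
Ratio of FPKM within each library (vertical axes, linear, from 0) for IRF1 per IRF2 and IRF7 per IRF3, with the mean as a line and the SD as a bar in the groups of 3. Both ratios are higher in each CPI-169 library than in each DMSO library of KARPAS-422, and IRF1 per IRF2 is highest in RL (1.07 and 0.939).

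Genes next to the IRF loci in the hg19 table went the way of the IRF gene in some cases and against it in others. With CPI-169 54.2% of all genes were called, and with GSK343 29.5%. Calls among the adjacent genes here and below are therefore common by background, and a tie to the locus was not tested. IRF3 overlaps BCL2L12, a gene of the BCL2 family, by its listed span. In KARPAS-422, BCL2L12 was at 50.2, 56.2 and 56.7 FPKM with DMSO and at 27.1, 20.3 and 24.6 when treated (log2 difference -1.16, SE 0.143, limma adjusted p = 5.66e-05). In Pfeiffer, where IRF3 was not called, BCL2L12 was at 33.7 and 31.0 FPKM with DMSO and 20.1 and 13.1 with GSK343 (-0.95, SE 0.175, adjusted p = 0.00259). BCL2L12 was thus lower with both inhibitors, and the difference between its responses did not pass (-0.20, adjusted p = 0.493). SCAF1, 925 bases from IRF3, fell by 0.43 on the log2 scale in KARPAS-422 (adjusted p = 3.35e-04) and differed by 0.11 in Pfeiffer (0.348). Whether counting used strand is not given in the sources used here, so fragments of overlapping genes cannot be told apart, and IRF3, BCL2L12, IRF2BP2 and IRF2 are uncertain to that extent.

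**Figure D5:**
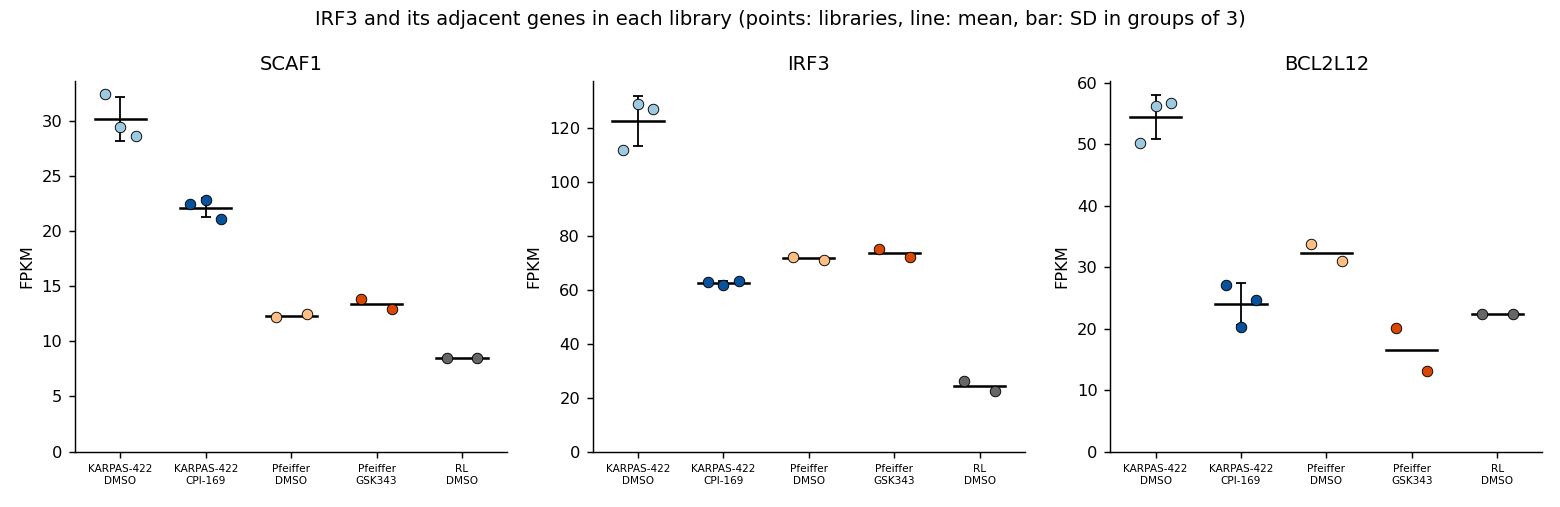
FPKM of IRF3 and of its adjacent genes SCAF1 and BCL2L12 (vertical axes, linear, from 0) in the 12 libraries, with the mean as a line and the SD as a bar in the groups of 3. In Pfeiffer, BCL2L12 lies lower with GSK343 (20.1 and 13.1 FPKM) than with DMSO (33.7 and 31.0), while IRF3 overlaps between the groups.

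C5orf56, 5563 bases from IRF1, rose in both lines. It was at 0.978 to 1.27 FPKM in KARPAS-422 with DMSO and 4.13 to 4.64 when treated (log2 difference 1.35, SE 0.0885, limma adjusted p = 7.12e-07), and at 0.478 and 0.626 with DMSO and 1.36 and 1.65 with GSK343 in Pfeiffer (0.69, SE 0.108, adjusted p = 0.00102). RP4-781K5.2, whose span overlaps IRF2BP2, fell by 0.78 in KARPAS-422 (adjusted p = 0.00167) and differed by 0.39 in Pfeiffer (0.154). RP11-326I11.3, 220 bases from IRF2, rose by 1.53 in KARPAS-422 (adjusted p = 6.88e-06), where IRF2 fell. On the sides of IRF5, TNPO3 fell with both inhibitors (-0.59, adjusted p = 1.66e-05, and -0.23, 0.0431, the latter lost without most single libraries, up to 0.173) and KCP rose with both (0.76, 2.65e-05, and 0.60, 0.00179). PHRF1, 329 bases from IRF7, passed in neither line (-0.09 and -0.16), and DEAF1 on its other side rose in both (0.49, 0.00119, and 0.86, 3.82e-04). PRMT1, beyond IRF3, fell in Pfeiffer by 0.60 (adjusted p = 0.00877), but by 0.38 without GSK343 replicate 2 and with no call without DMSO replicate 2 (0.0609), and differed by -0.20 in KARPAS-422 (0.159). With CPI-169, RP11-542M13.3, 12670 bases from IRF8 (0.41, 0.0312), and TARBP1, beside IRF2BP2 (0.58, 0.0339), were called higher, as was RP11-326I11.5, which overlaps IRF2, with GSK343 (0.57, 0.0484). Each of these 3 calls was lost when certain single libraries were left out, with adjusted p up to 0.122, 0.114 and 0.27. RP11-568J23.1, on the other side of IRF8, and RAD50, beside IRF1, passed in neither line.

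For each gene, the 3 genes most alike in log2(FPKM + 1) over the 12 libraries were taken from 11012 genes with a mean of at least 5 FPKM. These correlations are descriptions, since the libraries fall into 5 groups of 3 lines and share depth and scaling within a line. IRF7 was most like EPSTI1 (r = 0.9948), SAMD9L (0.9854) and DDX60 (0.9834), all genes induced by interferon. EPSTI1 shared the split of the GSK343 libraries, at 16.4 and 2.11 FPKM, but these libraries were among the 12 by which it was picked. IRF1 was most like ZBTB33 (0.9738), IFI16 (0.9603), a sensor of DNA, and LGALS9 (0.9536). IRF5 was most like TRAP1 (0.9956), EPB41 (0.9922) and PARVB (0.9905), IRF8 like PFN2 (0.9873), DNPEP (0.958) and ZNF688 (0.9506), and IRF3 like CRTC3 (0.983), LGALS8 (0.9802) and SLC35B3 (0.9761). IRF2 was most like PIK3C3 (0.9874), PJA1 (0.9773) and PIGS (0.976). IRF2BP2 was most like ELP2 (0.9917), the overlapping RP4-781K5.2 (0.9884) and CSNK1A1 (0.9828). Among the members, IRF2 and IRF3 were the most alike (r = 0.945) and IRF5 and IRF7 the most opposed (-0.781).

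Of 28 tested sensors, adaptors and kinases that act on IRF3, IRF5 or IRF7, 11 rose and 6 fell with CPI-169 in KARPAS-422, with a median log2 difference of 0.191. As for every list here, the background is 54.2% of all genes called with CPI-169 and 29.5% with GSK343, and both shares of this list are near it. UNC93B1, which carries Toll-like receptors to endosomes, went from 15.6 to 16.1 FPKM with DMSO to 69.5 to 80.8 with CPI-169 (2.17, SE 0.119, limma adjusted p = 2.24e-07). DDX58, which encodes the RNA sensor RIG-I, rose by 1.79 (adjusted p = 4.45e-07), and TLR7 and MYD88, which signal to IRF5 and IRF7, rose by 2.18 and 1.73 (adjusted p = 6.11e-05 and 1.33e-06). MB21D1, the DNA sensor cGAS, fell by 1.15 (adjusted p = 3.66e-05). With GSK343 in Pfeiffer 4 of the 28 rose and 4 fell, with a median of 0.0652. DHX58, an RNA helicase related to RIG-I, rose in both lines, by 2.12 with CPI-169 (adjusted p = 3.38e-06) and by 1.20 with GSK343 (0.00227), the latter 0.77 without GSK343 replicate 1. MB21D1 fell in Pfeiffer as well (-1.05, 9.38e-04). TLR7 and MYD88 were named after their values were seen.

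A list of 16 partners of IRF proteins held factors that act with them on DNA and the coactivator CREBBP. Of these, 4 rose and 6 fell with CPI-169, and 5 rose and 1 fell with GSK343 (medians -0.0226 and 0.284), where 54.2% and 29.5% of all genes were called. STAT2, which joins IRF9 in the complex ISGF3, was at 31.1 to 34.5 FPKM with DMSO and 119 to 127 with CPI-169 (1.89, SE 0.0697, limma adjusted p = 2.13e-08), and at 26.3 and 25.9 with DMSO and 44.0 and 38.7 with GSK343 (0.64, SE 0.0853, adjusted p = 3.66e-04). IRF9 rose in both lines as well (0.73, adjusted p = 0.00438, and 1.05, 0.0043), with the GSK343 libraries apart at 54.7 and 29.9 FPKM and a difference of 0.63 without replicate 1. The acetyltransferase CREBBP, a coactivator of IRF3, went in opposite directions, from 58.9 to 73.8 FPKM with DMSO to 20.3 to 24.6 with CPI-169 (-1.50, adjusted p = 1.20e-06) and from 9.89 and 10.8 with DMSO to 17.0 and 20.04 with GSK343 (0.78, 0.00141). The difference between its responses was -2.28 (SE 0.167, adjusted p = 6.59e-06). JUNB, a partner of IRF4 and IRF8 in AP-1 complexes, fell by 2.18 in KARPAS-422 (adjusted p = 4.95e-07) and differed by 0.20 in Pfeiffer (0.396). Of 4 tested other IRF genes and cofactors, 1 rose with CPI-169, and 2 rose (IRF9 and IRF4) and 1 fell (IRF2BP1) with GSK343. IRF4 was at 56.8 and 62.0 FPKM with DMSO and at 68.0 and 112 with GSK343 (0.55, SE 0.181, adjusted p = 0.0426), and its call was lost without any library other than GSK343 replicate 1 (0.0538 to 0.194), with a difference of 0.91 without that replicate and 0.19 without replicate 2. IRF2BP1 (-0.32, 0.0182) lost its call without either DMSO library. Of 10 negative regulators of IRF proteins, 2 rose and 2 fell with CPI-169 (LYN, 0.46, and CBL, -0.91, had the smallest adjusted p), and 2 rose and 1 fell with GSK343, where 54.2% and 29.5% of all genes were called. TNFAIP3 was at 4.04 and 4.95 FPKM with DMSO and at 19.6 and 9.33 with GSK343 (1.41, adjusted p = 0.00209, and 0.91 without replicate 1), and PTPN11 (-0.30, 0.0338) lost its call without any of 7 libraries.

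Genes known as targets of these factors are given as lists, against the same 54.2% and 29.5% of all genes called. Of 14 tested genes associated with IRF1, 10 rose and 1 fell with CPI-169, with a median of 0.758, and 2 rose and 1 fell with GSK343, with a median of 0.0957. CASP1, an inflammatory protease, went from 0.775 to 1.25 FPKM to 7.09 to 9.22 with CPI-169 (2.17, SE 0.123, limma adjusted p = 2.79e-07), and the peptide transporter gene TAP2 from a mean of 41.6 to 75.9 FPKM (0.85, SE 0.0722, adjusted p = 3.85e-06). SOCS1, an inhibitor of JAK kinases, rose in both lines (1.09, adjusted p = 1.79e-05, and 0.87, 0.0012), and so did TNFSF10, which encodes the death ligand TRAIL. It was listed at 0 in the KARPAS-422 DMSO libraries and averaged 0.735 FPKM with CPI-169 (0.79, 1.01e-04), and it rose in Pfeiffer by 0.57 (0.00813, and 0.0532 without DMSO replicate 2).

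Of 8 tested genes associated with IRF3, 6 rose and 0 fell with CPI-169, in the line and treatment where IRF3 itself fell, with a median of 2.94. RSAD2, the antiviral enzyme viperin, went from a mean of 5.20 to 74.2 FPKM (3.60, SE 0.187, limma adjusted p = 1.56e-07) and IFIT2 from 1.21 to 19.2 (3.19, SE 0.219, adjusted p = 9.64e-07). With GSK343 1 of 8 rose, and the median was 0.9. That gene, ISG20, was at 31.4 and 13.4 FPKM with GSK343 (1.03, SE 0.269, adjusted p = 0.0159). The difference was 0.45 without replicate 1 and 1.62 without replicate 2, and the call was lost without either DMSO library (0.0942 and 0.0603). RSAD2 and IFIT2 were also the higher in GSK343 replicate 1, IFIT2 at 3.00 and 0.80 FPKM. As background, these genes also answer to ISGF3. Of 24 interferon genes listed, 21 were in the table and none was tested: the highest value in any library was 0.508 FPKM.

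Of 11 tested genes associated with IRF8 in B and myeloid cells, 6 rose and 2 fell with CPI-169 and 1 rose and 0 fell with GSK343 (medians 0.38 and 0.195). BTK, a kinase of the B cell receptor, rose with CPI-169 (0.95, SE 0.0742, limma adjusted p = 2.20e-06), CD40 rose in both lines (1.60, 5.90e-06, and 0.56, 0.0358), and PAX5 fell with CPI-169 (-0.69, 9.90e-05). The CD40 difference in Pfeiffer was 0.91 without GSK343 replicate 1 and 0.21 without replicate 2. Its call there was lost without certain single libraries, some of them outside Pfeiffer. Among these were KARPAS-422 CPI-169 replicate 1 (limma adjusted p = 0.0512) and replicate 3 (0.0517).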

How the data were processed

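RNA of 12 libraries was sequenced, in 5 groups by line and treatment taken from the labels. The submitters' processing notes name TopHat 1.4.1, Cufflinks and the build hg19, and the authors deposited FPKM values per Ensembl gene ID. Not given in the sources used here: the version of Cufflinks, the annotation release and the strand setting. FPKM are relative: an abundant transcript lowers all others in its library. No read counts were used, and absolute depth is unknown. Relative depth was estimated as the most common ratio of FPKM in the line's first DMSO replicate to FPKM in a library. Only genes with low values, above 0 and under 1 FPKM in both, entered. It was 0.647 to 1 for KARPAS-422 libraries, 1 to 1.33 for Pfeiffer libraries and 0.773 to 1 for RL libraries. An exact 0 can be a failed estimate.

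Genes with missing values (77) were left out, and 18731 genes that reached 1 FPKM in 2 or more libraries were kept. Values were transformed to log2(FPKM + 1), so every log2 difference is on that scale and understates changes of low genes. One limma model (version 3.58.1, R 4.3.3) held all 5 groups (trend, 7 residual and 3.45 prior degrees of freedom), two-sided, with Benjamini-Hochberg adjustment over all 18731 genes and a threshold of 0.05, in 6 comparisons. Every adjusted p printed is from limma. "Rose", "fell" and "called" mean that a gene passed. Within-library ratios were compared with exact permutation tests. The fit was tested on simulated data in which a gene had the same spread in all groups. It called 62.7% of 1.5-fold changes for CPI-169 and 50.7% for GSK343. Of 2-fold changes it called 91% and 83.6%. The wider spread between the GSK343 libraries was not part of the simulation, so it does not test calls under that spread. Pairing by replicate number was checked and not used. The labels do not say that numbers are shared, and same-numbered KARPAS-422 libraries correlated at -0.152, -0.252 and 0.156 in their deviations from group means.

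The 7 genes and all lists were chosen with earlier results of these data known. Named genes were the 7 members, the up to 2 called genes with the smallest adjusted p per list and treatment, the nearest tested genes on each side of a member with any that overlap it, and the 3 genes most correlated with it. EZH2, IRF4, TLR7, MYD88, CD2, CD22, CD79A and CD79B are named outside this rule, and adjacent genes with no call are named only in part. Promoter windows are from RefSeq (GRCh38.p14), without the 50 bases after the start. IRF2, IRF3 and IRF7 had no window. Leaving out each library for the other named genes was chosen after seeing the data. Alternatives were another pseudocount, filters, quantile and median scaling, no trend, lines fitted alone, a replicate block and each library left out. A few genes are not reported here and were left out of the lists and of the summed IRF level.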

Additional observations from a re-analysis of the deposited data

Results flagged for a closer look

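For 6 of the 7 genes the CPI-169 response in KARPAS-422 and the GSK343 response in Pfeiffer differed in the limma fit, tested as the difference of the responses with adjustment over all genes. On the log2(FPKM + 1) scale the difference was 0.64 for IRF1, -0.58 for IRF2, -0.99 for IRF3, 1.12 for IRF5, 0.71 for IRF8 and -1.42 for IRF2BP2. In the same test 42.6% of all genes passed. IRF2BP2 moved in opposite directions in the lines, with all 3 CPI-169 libraries below and both GSK343 libraries above their DMSO libraries. In these comparisons 65% and 57.8% of all genes did not overlap. The rise of IRF2BP2 in Pfeiffer lost its call in 3 of 20 alternatives. Among these 6, only the differences for IRF8 and IRF1 changed side of the threshold under the alternatives run, IRF8 without any single library other than GSK343 replicate 2, with quantile normalization and with no filter on low values, and IRF1 with quantile normalization. Line and compound cannot be told apart in any of these.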

How the results depend on the processing

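Over 791 values of the 7 genes under alternatives, 725 kept their sign and their side of the threshold, 43 lost the call, 11 gained it and 12 changed sign. Each changed sign belonged to a gene that had not passed, except IRF8 between Pfeiffer and KARPAS-422, at -0.0037 with quantile normalization. That setting moved the median of all genes there from 0.057 to -0.102, and in RL against Pfeiffer from -0.0252 to 0.126. It also gave 0.10 for IRF8 with GSK343 and -0.033 for IRF5 in RL against Pfeiffer.

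With GSK343, 2 members were called, but 1 with a pseudocount of 0.1, 1 with no filter on low values, 1 with eBayes without a trend, 0 with Pfeiffer fitted alone, and 0 to 3 when single libraries were left out. All genes called there numbered 5535, against 809 with Pfeiffer fitted alone and 2922 to 8485 without single libraries. For these the cause was not tested. Leaving out single libraries gave GSK343 differences of -0.0035 to 0.22 for IRF2, -0.11 to 0.15 for IRF5 and -0.47 to 0.29 for IRF8. The difference of responses of IRF7 ran from -1.99 to 0.41, and RL against Pfeiffer from -0.031 to 0.11 for IRF5 and from -0.028 to 0.29 for IRF7. Members called ran from 6 to 7 with CPI-169, 5 to 7 for the difference, 4 to 7 in Pfeiffer against KARPAS-422 and 6 to 7 in RL against KARPAS-422, and stayed at 5 in RL against Pfeiffer.

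With a replicate block, 6 members were called with CPI-169, 2 with GSK343 and 6 for the difference, as without it, and no member changed its call. All genes called were 9984, 5081 and 7626. The KARPAS-422 numbers did not each correlate best with their own. Where a group is left with 1 library, that library is assumed to vary like the other groups. With 2 or 3 libraries a group, a difference that did not pass is not shown to be absent.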
